A study of Sus scrofa with 5 samples.

Results

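Serum exosomes carried 180 of the 237 mature miRNA names listed in at least 1 of the 5 fluids, and a further 174 names in the tables were listed in none. These 180 names are described here against plasma, semen, urine and bile. A name was taken as a serum miRNA where its deposited count in the serum library was 10 or more, which is also the smallest count above 0 that any of the tables holds. Exosomes are small vesicles that cells release into the fluids around them, and miRNAs are short RNAs that lower the output of messenger RNAs they pair with. Each hairpin precursor can give a miRNA from its 5' arm (5p) and one from its 3' arm (3p).

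Every group was exosome small RNA of pigs of the Chinese breed Rongchang at postnatal day 180, and the labels tell the groups apart by the fluid: serum, plasma, semen, urine or bile. There was 1 library per fluid. The sources used here do not say how many animals were sampled, of which sex, whether material was pooled, or whether 1 animal gave several fluids. No difference below has a replicate check, no p-value is given, and every fold is a difference between 2 libraries.

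Serum is what remains of blood after it has clotted, while plasma is blood fluid from which the cells were spun away without clotting. Blood cells, vessel walls, liver and other organs in contact with blood can all release miRNAs into it. miR-451 and miR-486 are known from red blood cells, miR-150 and miR-342 from lymphocytes, miR-126 from endothelium and platelets, and miR-122 from liver. In bulk libraries, more vesicles from a cell type and more of a miRNA in each vesicle cannot be told apart. The files hold no measure of vesicle purity, and no miRNA defines serum, so its label could not be checked against a defining marker.

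The serum library held 473168 miRNA counts, between the 26522 of urine and the 2284926 of semen, with 1153755 in plasma and 1673239 in bile. Levels are given as percent of a library's summed miRNA counts. A percent rests on the other miRNAs of its library as well as on the miRNA itself. Intervals are 95% intervals (exact Clopper-Pearson for a percent, exact conditional binomial for a ratio) and cover counting error only, since no molecular identifiers are named. A name listed at 0 stands for 0 to 9 counts, and such a fluid entered ratios at 10 counts, so the ratio is written as "at least". Counts of different miRNAs are numbers of reads, not of molecules.

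The choice of library total matters for every comparison with another fluid. Under 6 scalings (the miRNA total, TMM from edgeR, DESeq2 size factors, totals without each library's leading miRNA, totals without the 3 leading plasma miRNAs, and the authors' RPM, in which reads are scaled to a library total of 1000000) all ratios of serum to a given fluid are multiplied by 1 common factor. That factor reached down to 0.101 for plasma, 0.211 for semen, 0.721 for urine and 0.282 for bile, and up to 18.2 for urine on the authors' RPM. A serum-over-plasma ratio under 9.88 therefore turns below 1 in at least 1 scaling. The same limit was 4.74 for semen, 1.39 for urine and 3.55 for bile. On the authors' RPM the listed miRNAs made up 4.47% of the serum total and 0.246% of the urine total.

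The serum set ran from a few abundant miRNAs to a long series of rare ones. In it, 11 names had at least 10000 counts and took 67.1% of the library, 49 had at least 1000 and took 95.1%, and names with at least 100 took 99.5% in all. The remaining 77 names, with 10 to 99 counts each, summed to 2545 counts or 0.538%. Counts were spread over more names in serum than in the other libraries. To reach 50% of the library's counts took 6 names in serum, 2 in plasma, 1 in semen and 3 each in urine and bile. To reach 90% took 33 names in serum, 7 in plasma, 14 in bile, 21 in urine and 11 in semen. The effective number of names, the exponential of Shannon's entropy, was 30.1 in serum, 18.4 in urine, 13.7 in bile, 8.17 in semen and 6.39 in plasma.

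**Figure D1:**
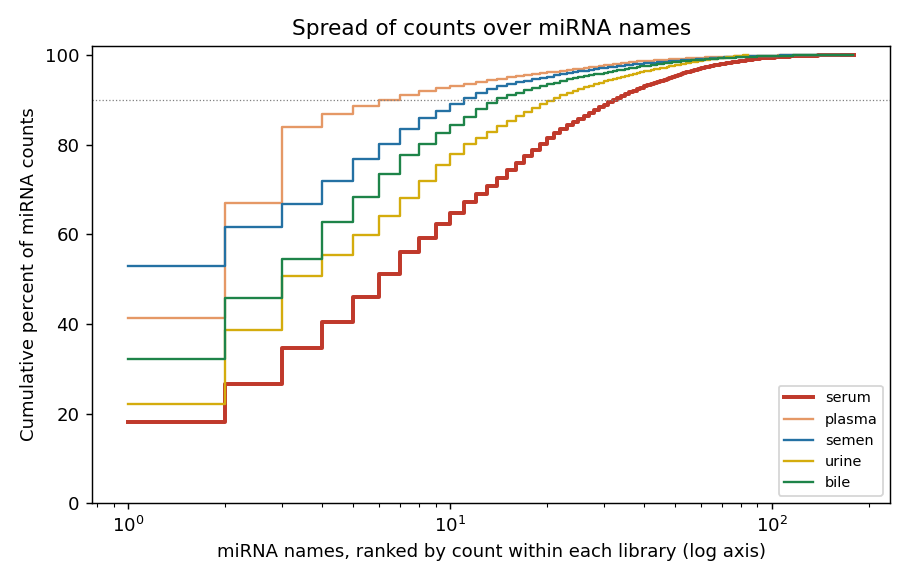
Cumulative percent of miRNA counts (vertical axis) against the number of names, ranked by count within each library (horizontal log axis), with 1 line per fluid and a dotted line at 90%. The serum curve lies lowest on the left and crosses 90% at 33 names, against 7 to 21 names in the other libraries.

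Most serum counts came from miRNAs that every fluid listed. The 67 serum names listed in all 5 fluids held 82.4% of serum counts, and the 43 listed in 4 fluids held 13.2%. Another 46 names were listed in 3 fluids (3.98% of counts), 18 in 2 fluids (0.305%) and 6 in serum alone (0.0507%). Of the serum names, 83.3% were also listed in bile, 79.4% in semen, 77.2% in plasma and 41.7% in urine. The shared names made up 83.8%, 82.2%, 86.3% and 89.3% of the names listed in those fluids.

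The 25 most abundant serum miRNAs took 85.8% of the library (85.7 to 85.9). Of these, 14 were also among the 25 leading names of plasma, 14 of urine, 14 of bile and 13 of semen. The 5 that led in every fluid were let-7i, miR-148a-3p, miR-21, miR-27b-3p and miR-99a. By percent, 12 of the 25 were higher in serum than in any other fluid, near the 48.9% of all 180 serum names that were. Those 88 names are 37.1% of the 237 listed in any fluid. The 12 were miR-451, miR-140-3p, let-7g, miR-92a, miR-215, let-7c, miR-24-3p, miR-486, miR-23a, miR-146a-5p, miR-182 and miR-148b-3p. Among these 12, miR-451, miR-140-3p, miR-92a, miR-215, miR-486 and miR-23a stayed above the next fluid under all 6 scalings.

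**Figure D2:**
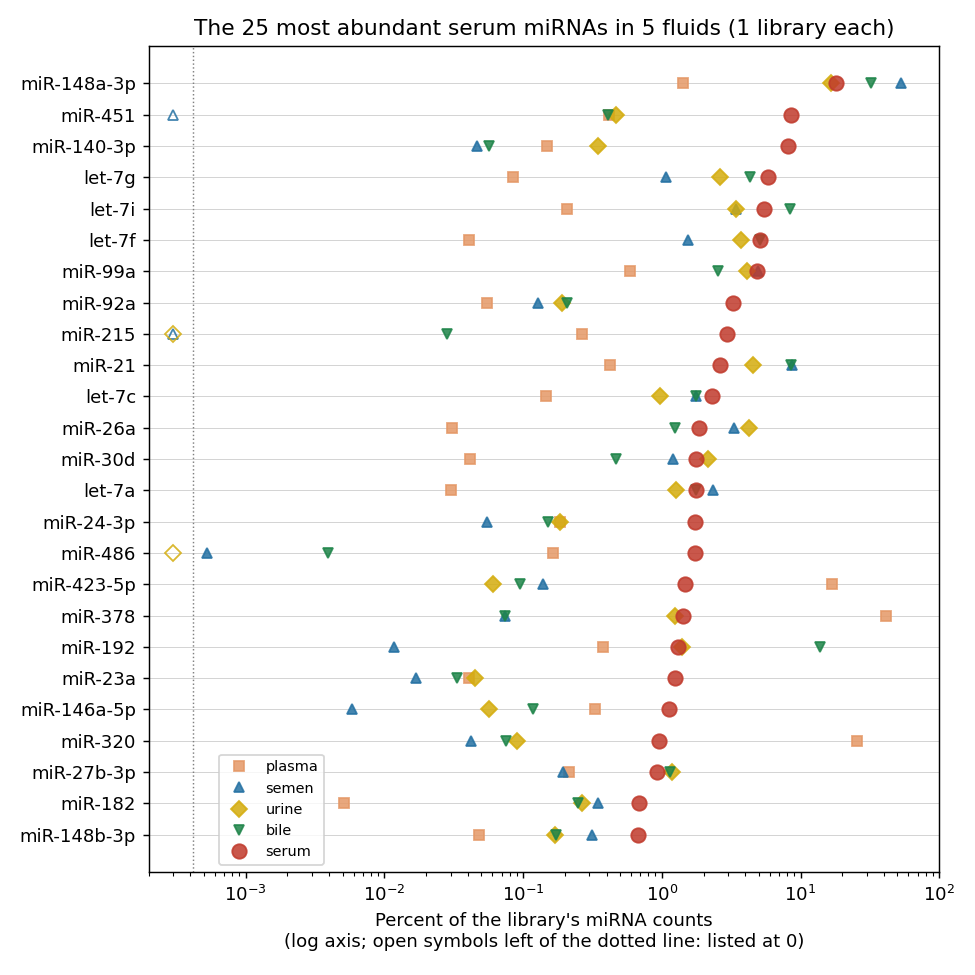
Percent of the library's miRNA counts (horizontal log axis) for the 25 most abundant serum miRNAs, with 1 symbol per fluid and open symbols at the left edge for values listed at 0. miR-378, miR-320 and miR-423-5p stand far higher in plasma, while the other 22 names lie lower in plasma than in serum.

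Red blood cell miRNAs made up 10.6% of serum counts (10.6 to 10.7), against 0.805% in plasma, 0.546% in bile, 0.468% in urine and 0.036% in semen. The list held miR-451, miR-144, miR-486 and miR-185, and all 4 were highest in serum by percent, beside 48.9% of all serum names. The sum was higher in serum than in each other fluid under all 6 scalings, by 1.34 to 13.2 times over plasma. The count of members highest in serum fell to 2 of 4 with TMM, DESeq2 size factors, the authors' RPM or totals without the 3 leading plasma miRNAs.

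miR-451, which is cut from its hairpin by Argonaute 2 rather than Dicer and is needed for red cell maturation, had 40127 counts in serum. Plasma had 4775 and bile 6896, and semen listed it at 0. As a share this was 8.48% in serum, and 0.414%, 0.412% and 0.468% in plasma, bile and urine. The last 3 fluids thus lay close to each other, and serum stood 20.5 times above plasma (19.9 to 21.1), 20.6 times above bile (20.1 to 21.1) and 18.1 times above urine (15.2 to 21.8). The smallest ratio to the next fluid under any scaling was 2.07, with TMM.

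miR-486, from an intron of the erythroid ankyrin gene, had 8179 counts in serum, 1909 in plasma, 66 in bile, 12 in semen and a listed 0 in urine. It was a miRNA of the 2 blood fluids: serum stood 10.4 times above plasma (9.94 to 11.0) but 438 times above bile (344 to 567). The plasma ratio rested on the scaling and was 1.06 with TMM. miR-185 had 2037 counts in serum and 2561 in plasma, or 0.431% against 0.222%, which puts it under the limit at which the direction holds in all scalings. It was chosen for mention after its values were seen, as a member of the list.

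Lymphocyte miRNAs were a small group, with 9 names listed in serum of 11 listed in any fluid. miR-29b and miR-29c of this list were listed in semen and bile only. The list took 1.48% of serum counts (1.45 to 1.52), 0.0767% of plasma, 0.325% of semen, 0.23% of urine and 0.26% of bile. Of the 9, 8 were highest in serum by percent, beside 48.9% of all serum names, and 5 to 8 were so across the scalings. Against plasma, 8 of 9 were at least 4-fold higher, where 58.9% of all serum names and 52.5% of the names listed in either fluid were. The median log2 ratio of the 9 was 3.55, beside 2.57 over all names listed in both libraries. The sum was above plasma, urine and bile under all scalings, and against semen it turned to 0.962 times on the authors' RPM.

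miR-342, which lies in an intron of the EVL gene, was the most abundant of them with 2970 serum counts. It had 20 counts in plasma, 13 in semen, 48 in bile and a listed 0 in urine. Serum was thus 362 times above plasma (234 to 594) and 219 times above bile (165 to 297), and at least 16.6 times above the urine floor. Its ratio to the next fluid or its floor was at least 12.002 under every scaling.

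miR-181a, which tunes T cell receptor signalling, took 0.218% of serum, 0.0169% of plasma, 0.0506% of bile, 0.0829% of urine and 0.00333% of semen. Serum stood 12.9 times above plasma (11.0 to 15.1), 4.31 times above bile (3.93 to 4.72) and 2.62 times above urine (1.72 to 4.21). miR-150, a miRNA of mature lymphocytes named here as 1 of the 4 miRNAs that stayed 4-fold above every fluid in all scalings, had 1008 counts in serum. It had 37 in plasma, 96 in bile and listed zeros in semen and urine. Its 5.65-fold lead over the urine floor is a lower bound, and its lead over bile was 37.1 times (30.1 to 46.3). The other 3 of these 4 miRNAs were miR-140-3p, miR-92a and miR-342.

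The miR-142 hairpin, active throughout the blood lineage, gave 501 counts of its 5p arm and 258 of its 3p arm in serum. Bile had 172 and 27, plasma had 104 of the 5p arm and more of the 3p arm, and semen and urine listed both at 0. The 5p arm was therefore the larger in serum, with 66.0% of the hairpin's counts (62.5 to 69.4), and in bile with 86.4% (80.9 to 90.9), but not in plasma with 42.4% (36.2 to 48.9). This share does not change with any library scaling.

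Myeloid and platelet lists gave a mixed picture. The myeloid list took 2.89% of serum and 0.519% of plasma, and the platelet list 6.15% and 0.675%. Both lists name miR-223, for which no fluid held a count above 0, so neither sum includes it. A missing entry is not told apart here from a listed 0, so miR-223 cannot be called low. For both sums, the direction between serum and plasma changed with the scaling, to 0.563 and 0.921 times with TMM. The myeloid list took 0.103% of semen, 0.358% of urine and 0.287% of bile, below serum under all 6 scalings. The platelet list took 9.38% of semen and 9.22% of bile, above serum under all 6 scalings. It took 5.23% of urine, where the direction turned. miR-24-3p belongs to both lists, and they are not independent. It had 8203 counts in serum, 2141 in plasma, 2538 in bile, 49 in urine and 1264 in semen. By percent it stood 9.34 times above plasma (8.91 to 9.80) and 31.3 times above semen (29.5 to 33.3), but with TMM it lay below plasma.

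miR-146a-5p, a brake on innate immune signalling, had 5315 counts in serum, 3836 in plasma, 1966 in bile, 15 in urine and 134 in semen. It was 3.38 times higher in serum than in plasma (3.24 to 3.52), a direction that turns with the scaling. The gaps to semen, 191.5 times (161 to 229), and to bile, 9.56 times (9.08 to 10.1), are above the limits given for those fluids. miR-21, abundant in many cell types, went the other way: it held 2.63% of serum and 0.426% of plasma, but 8.69% of semen, 4.54% of urine and 8.56% of bile.

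Endothelial miRNAs took 0.752% of serum (0.728 to 0.777), against 0.0695% to 0.168% in the other fluids, and 5 of the 6 members in serum, of 8 listed in any fluid, were highest there by percent, beside 48.9% of all serum names. Under the scalings that count was 2 to 5, and the sum fell to 0.948 times semen on the authors' RPM. The exception among the 6 by percent was miR-222, with 32 counts in serum. It was at least 4-fold lower in serum than in semen, urine and bile. miR-126-3p, from an intron of EGFL7, took 0.444% of serum, 0.0192% of plasma, 0.0488% of bile, 0.0528% of urine and 0.0366% of semen. Serum was 23.2 times above plasma (20.2 to 26.8), 12.1 times above semen (11.2 to 13.2) and 8.42 times above urine (5.01 to 15.4). miR-139-5p took 0.173% of serum, 0.00130% of plasma and 0.0111% of bile, with listed zeros in semen and urine. It stood 132.97 times above plasma (80.1 to 239) and 15.6 times above bile (13.3 to 18.4), which makes it 1 of the 4 serum miRNAs furthest above plasma.

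The cartilage miRNA miR-140 was the third most abundant name in serum and took a smaller share of every other fluid. Its 3p arm had 38451 counts in serum, 1716 in plasma, 944 in bile, 92 in urine and 1055 in semen. This is 8.13% of serum, against 0.149% of plasma, 0.0564% of bile, 0.347% of urine and 0.0462% of semen. The ratio was 54.6 over plasma (52.1 to 57.4), 176 over semen (166 to 187), 23.4 over urine (19.1 to 29.1) and 144.04 over bile (135 to 154). Under every scaling miR-140-3p stayed at least 5.53 times above the next fluid.

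The 5p arm of miR-140 did not share this height. It had 87 counts in serum, 119 in semen and 12 in bile, and was listed at 0 in plasma and urine. Within serum the 3p arm exceeded the 5p arm by 442 times (358 to 552), against 78.7 times in bile (44.8 to 153), 8.87 times in semen (7.33 to 10.8) and at least 172 times in plasma. The balance of the arms in serum thus lay beyond the counting intervals of semen and bile.

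The miR-17-92 cluster and its paralogs, miRNAs tied to cell proliferation, made up 3.78% of serum (3.72 to 3.83), 0.106% of plasma, 0.193% of semen, 0.89% of urine and 0.316% of bile. Of 12 members listed in any fluid 10 were in serum, and 9 of these were highest there by percent, beside 48.9% of all serum names. Across the scalings 6 to 9 were. The sum was above each other fluid under all 6 scalings, by 3.60 to 35.5 times over plasma. Reads of miR-17, miR-20 and miR-106 members can match more than 1 of them, and the sources used here do not say how such reads were assigned.

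Most of the sum was miR-92a, which had 15442 counts in serum, 630 in plasma, 3474 in bile, 51 in urine and 2932 in semen. Serum was 59.8 times above plasma (55.2 to 64.8), 25.4 times above semen (24.4 to 26.5), 16.97 times above urine (12.9 to 22.8) and 15.7 times above bile (15.1 to 16.3). miR-20a, encoded beside 1 gene copy of miR-92a, had 1006, 179, 344, 14 and 1256 counts in serum, plasma, semen, urine and bile. Another copy of miR-92a lies in the paralogous cluster with miR-363, so the pair does not compare products of a single transcript. The ratio of serum to the other fluid was larger for miR-92a than for miR-20a in all 4 comparisons. In serum miR-92a exceeded miR-20a by 15.3 times (14.4 to 16.4), in semen by 8.52 (7.62 to 9.56), in urine by 3.64 (1.99 to 7.13), in plasma by 3.52 (2.98 to 4.18) and in bile by 2.77 (2.59 to 2.95).

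miR-363, encoded in the paralogous cluster on the X chromosome, was the exception among the 10. It had 239 counts in serum and 171 in the much smaller urine library, so that urine stood 12.8 times above serum (10.4 to 15.6). On the authors' RPM this direction turned. The miR-15/16 family, which restrains the cell cycle, showed the serum pattern on a smaller scale, with 0.278% of serum. Plasma, semen and bile held at most 0.0398%, and serum was higher than each of them in every scaling. Urine listed all members at 0, so its sum was not compared. miR-16 took 0.258% of serum, 0.00364% of plasma, 0.00910% of semen and 0.0314% of bile, and miR-15b had 84 in serum and 15 in semen, with listed zeros in plasma, urine and bile. Urine listed miR-16 at 0 as well.

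The miR-23, miR-24 and miR-27 families, encoded in 2 clusters, took 4.54% of serum (4.48 to 4.60), 0.512% of plasma, 0.348% of semen, 1.89% of urine and 1.52% of bile. The direction against plasma and against bile turned under some scaling. The member that stood apart was miR-23a, with 5892 counts in serum, 471 in plasma, 555 in bile, 12 in urine and 385 in semen. Serum was 30.5 times above plasma (27.8 to 33.6), 73.9 times above semen (66.7 to 82.1), 27.5 times above urine (15.7 to 53.3) and 37.5 times above bile (34.4 to 41.0).

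miR-27a lies beside miR-23a in the genome and is made from the same precursor transcript, yet serum led by less. Within serum miR-23a exceeded miR-27a by 2.81 times (2.67 to 2.95). In plasma the same ratio was 0.602 (0.535 to 0.675), in bile 0.214 (0.195 to 0.235), in urine 0.571 (0.256 to 1.22) and in semen 0.469 (0.414 to 0.530). Serum was the only one of the 5 libraries in which miR-23a was the larger of this pair, although the interval of urine includes 1. miR-27b-3p of the sister cluster took 0.923% of serum, 0.216% of plasma, 0.195% of semen, 1.18% of urine and 1.15% of bile.

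The let-7 family, with miR-98, was the largest family in serum, at 20.8% of counts (20.7 to 20.9). Bile held nearly as much, 21.7%, while urine had 12.3%, semen 10.4% and plasma 0.517%. All 9 members were at least 4-fold higher in serum than in plasma by percent, where 58.9% of all serum names and 52.5% of the names listed in either fluid were. The sum stayed above plasma in every scaling, by 4.08 to 40.3 times. Against semen the direction of the sum turned under some scalings. These miRNAs promote differentiation and differ from each other by a few bases, so that the values of single members are uncertain. let-7g, let-7i and let-7f led with 27591, 25997 and 24037 counts.

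let-7g was the leading member in serum. It took 5.83% of serum, 0.0846% of plasma, 1.08% of semen, 2.63% of urine and 4.33% of bile. let-7i took 5.49%, 0.206%, 3.44%, 3.45% and 8.41% in the same order, and was highest in bile. let-7i therefore fell just short of let-7g in serum, at 0.942 times (0.926 to 0.958), but exceeded it in urine by 1.31 times (1.19 to 1.45), in bile by 1.94 (1.93 to 1.96), in plasma by 2.44 (2.26 to 2.63) and in semen by 3.19 (3.15 to 3.24). let-7f and let-7a were level between serum and bile, at 0.994 (0.980 to 1.01) and 1.003 times (0.978 to 1.03).

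The liver list took 20.1% of serum, and its sum mostly followed 1 name. miR-148a-3p alone took 18.1% of serum, 32.1% of bile and 52.8% of semen. Of its 7 serum members, 1 was highest in serum by percent, beside 48.9% of all serum names. The list took 52.3% of bile, 53.2% of semen, 18.4% of urine and 3.14% of plasma. Semen and bile were higher under all 6 scalings, while the direction against plasma turned, to 0.646 times with TMM. miR-148a-3p, the leading serum miRNA, had 85536 counts there, 16309 in plasma, 536641 in bile, 4401 in urine and 1206850 in semen. Semen exceeded serum by 2.92 times (2.90 to 2.94) and bile by 1.77 times (1.76 to 1.79), and urine differed from serum by a factor of 0.918 (0.890 to 0.946). Its family member miR-148b-3p had 3206 counts in serum, 553 in plasma, 2893 in bile, 45 in urine and 7129 in semen, and was highest in serum by percent. Within the library miR-148a-3p exceeded miR-148b-3p by 26.7 times in serum (25.8 to 27.6) and 29.5 in plasma (27.1 to 32.2), against 97.8 in urine (73.0 to 134), 169 in semen (165 to 173) and 185.5 in bile (179 to 192.5).

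The liver-specific miR-122 took a smaller share of serum than of bile and plasma, and a larger one than of semen and urine. Plasma stood 2.64 times above serum (2.51 to 2.77). Serum stood 278 times above semen (196 to 408) and 10.3 times above urine (5.60 to 21.6). It had 1842 counts in serum, 11836 in plasma, 91481 in bile, 10 in urine and 32 in semen, so bile stood 14.0 times above serum (13.4 to 14.7). miR-192, of liver and gut, had 6175 counts in serum, 4379 in plasma, 229971 in bile, 371 in urine and 269 in semen, and bile exceeded serum by 10.5 times (10.3 to 10.8). miR-194a, encoded beside miR-192, was lower still in serum, to 28 counts against 7450 in bile, which was 75.2 times above serum (52.0 to 113).

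miR-215 has nearly the sequence of miR-192 and is encoded at a second locus, and its balance between serum and bile was the opposite. It had 13939 counts in serum, 3091 in plasma, 476 in bile and listed zeros in semen and urine. Serum stood 11.0 times above plasma (10.6 to 11.4), 104 times above bile (94.5 to 114) and at least 78.1 times above the urine floor. Within serum miR-215 exceeded miR-192 by 2.26 times (2.19 to 2.33). The same ratio was 0.706 in plasma (0.674 to 0.739) and 0.00207 in bile (0.00189 to 0.00226), and at most 0.0372 in semen and 0.0270 in urine. miR-194b-5p, the neighbour of miR-215, was as scarce as miR-194a, so that miR-215 exceeded it by 387 times in serum (280 to 553) and by 7.32 in bile (5.64 to 9.64). Reads that match both miR-192 and miR-215 could have been counted for either.

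**Figure D3:**
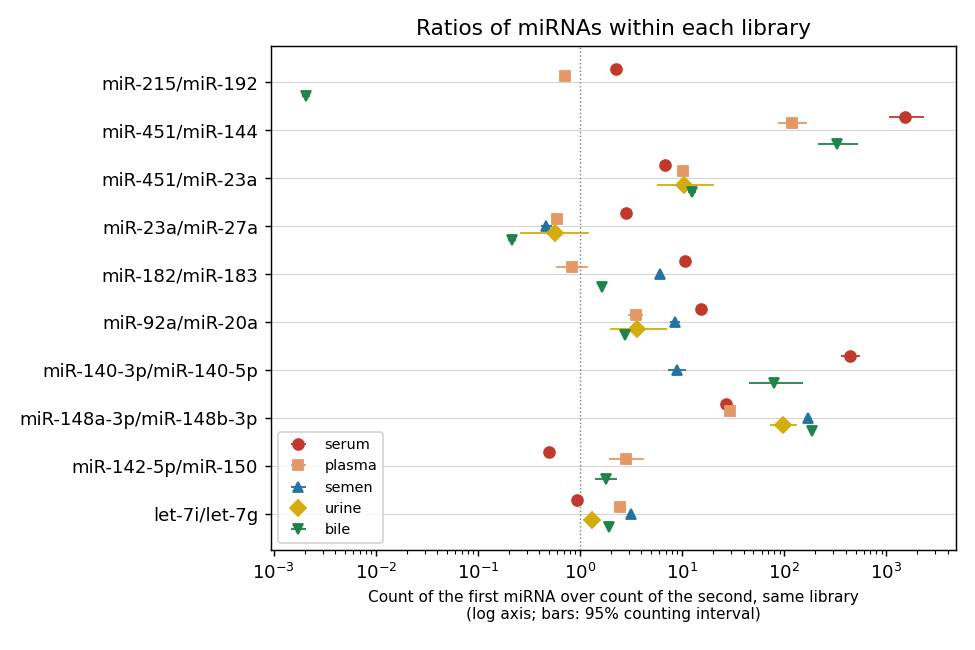
Count of the first miRNA over the count of the second in the same library (horizontal log axis) for 10 pairs, with 1 symbol per fluid, bars for the 95% counting interval and no symbol where either miRNA was listed at 0. These ratios do not depend on library scaling. The serum symbol lies to the right of all others for miR-215 over miR-192, miR-23a over miR-27a and miR-92a over miR-20a.

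The pairs in this plot of within-library ratios were chosen after values had been seen, from family members, arms and genomic neighbours. The clearest neighbour pair was miR-451 and miR-144, which share 1 transcript. In serum miR-451 exceeded miR-144 by 1543 times (1053 to 2363), in bile by 328 (214.7 to 531) and in plasma by 119 (87.5 to 167). miR-182 exceeded its neighbour miR-183 by 10.7 times in serum (9.52 to 12.1), 6.13 in semen (5.78 to 6.50), 1.65 in bile (1.57 to 1.73) and 0.831 in plasma (0.578 to 1.19). Both belong to a cluster known from epithelial and sensory cells.

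The blood cell miRNAs did not keep 1 proportion across the fluids. miR-451 exceeded miR-486 by 4.91 times in serum (4.79 to 5.02), 2.50 in plasma (2.37 to 2.64) and 104 in bile (82.0 to 135). It exceeded miR-16 by 32.9 times in serum (31.0 to 34.8), 114 in plasma (84.0 to 158) and 13.1 in bile (12.02 to 14.4). Among lymphocyte miRNAs, miR-142-5p stood at 0.497 times miR-150 in serum (0.446 to 0.554), but at 2.81 times in plasma (1.91 to 4.21) and 1.79 in bile (1.39 to 2.32).

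By percent, urine held more than serum of the miR-30 family and of the miR-10, miR-99, miR-100 and miR-125 families. The miR-30 family took 2.67% of serum (2.62 to 2.72), 2.55% of semen, 2.81% of bile, 0.11% of plasma and 27.6% of urine. None of its 7 names was highest in serum under any scaling, beside 48.9% of all serum names by percent. miR-30d was its leading name in serum, with 8418 counts, beside 482 in plasma, 7888 in bile, 575 in urine and 27695 in semen. miR-30a-5p made the difference to urine: it had 1528 counts, or 0.323%, in serum and 5855, or 22.1%, in urine, 68.4 times more (64.6 to 72.4). Its partner arm miR-30a-3p followed, with 67 counts in serum and 227 in urine, 60.4 times more by percent (45.8 to 80.6).

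The miR-10, miR-99, miR-100 and miR-125 families took 6.25% of serum (6.18 to 6.32), 0.754% of plasma, 15.5% of semen, 21.2% of urine and 3.76% of bile. None of 8 names was highest in serum by percent, beside 48.9% of all serum names. miR-99a carried the serum share, with 4.89% there, 0.593% in plasma, 2.54% in bile, 4.09% in urine and 4.95% in semen. miR-10b, from the HOXD gene cluster, held 0.569% of serum, 0.0205% of plasma, 4.98% of semen, 12.005% of urine and 0.201% of bile. Urine thus exceeded serum 21.1 times (20.04 to 22.2) and semen did so 8.75 times (8.42 to 9.09). The kidney list, which shares miR-30a, miR-10b, miR-194a and miR-194b with other lists here, took 3.87% of serum and 35.5% of urine. Its leading serum member, miR-215, went the other way. It had 13939 of the list's 18290 serum counts and a listed 0 in urine. On the authors' RPM the direction against urine turned for these 3 sums.

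Smooth muscle and fibroblast miRNAs leaned towards bile. Smooth muscle names took 0.227% of serum and 2.29% of bile, and fibroblast names 0.0898% and 0.578%, with bile higher under all 6 scalings. miR-143-3p had 960 counts in serum, 915 in plasma, 37946 in bile, 82 in urine and 78 in semen, which put bile 11.2 times above serum (10.5 to 11.9). miR-199a-3p had 301 counts in serum, 552 in plasma, 6954 in bile, 13 in urine and 11 in semen, 6.53 times the serum share (5.82 to 7.36). miR-214 and miR-145-5p, with 0.0203% and 0.0213% of serum, were listed at 0 in semen and urine.

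Striated muscle miRNAs took 0.256% of serum, 0.0688% of plasma, 0.0208% of semen, 1.08% of urine and 0.328% of bile. Their members split by fluid. miR-133a-3p was listed in the blood fluids only, with 0.0793% of serum and 0.0117% of plasma. miR-1, its partner on the same transcripts, was in every fluid, with 313 counts in serum, 42 in plasma, 4827 in bile, 174 in urine and 34 in semen. The ratio of miR-133a-3p to miR-1 was 1.20 in serum (1.03 to 1.40) and 3.21 in plasma (2.26 to 4.66), and at most 0.00207 in bile. miR-133a and miR-133b are near-identical, and their separate counts are uncertain.

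Remaining lists were small or rested on 1 name. Epithelial names took 0.775% of serum, 0.0133% of plasma, 0.528% of semen, 0.373% of urine and 0.458% of bile. Of the 4 in serum, 2 were highest there by percent, near the 48.9% of all serum names that were. Most of the sum was miR-182, with 3256 counts in serum, 59 in plasma, 4187 in bile, 70 in urine and 7991 in semen. miR-183 had 304 counts in serum, 71 in plasma, 2545 in bile, a listed 0 in urine and 1304 in semen. The neural and endocrine list took 0.855% of serum, against 0.0929% to 0.468% in the other fluids, led by miR-7 with 2805 counts and miR-128 with 1186. The direction of these sums changed under some scaling, against semen and bile for the epithelial list and against plasma and semen for the neural and endocrine list. miR-128 was 11.8 times above plasma (10.3 to 13.6), 5.70 above semen (5.24 to 6.21) and 8.49 above bile (7.64 to 9.45). The male germ line list had 1 name in serum, miR-184 with 17 counts, and the imprinted DLK1-DIO3 region also had 1, miR-127 with 13.

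**Figure D4:**
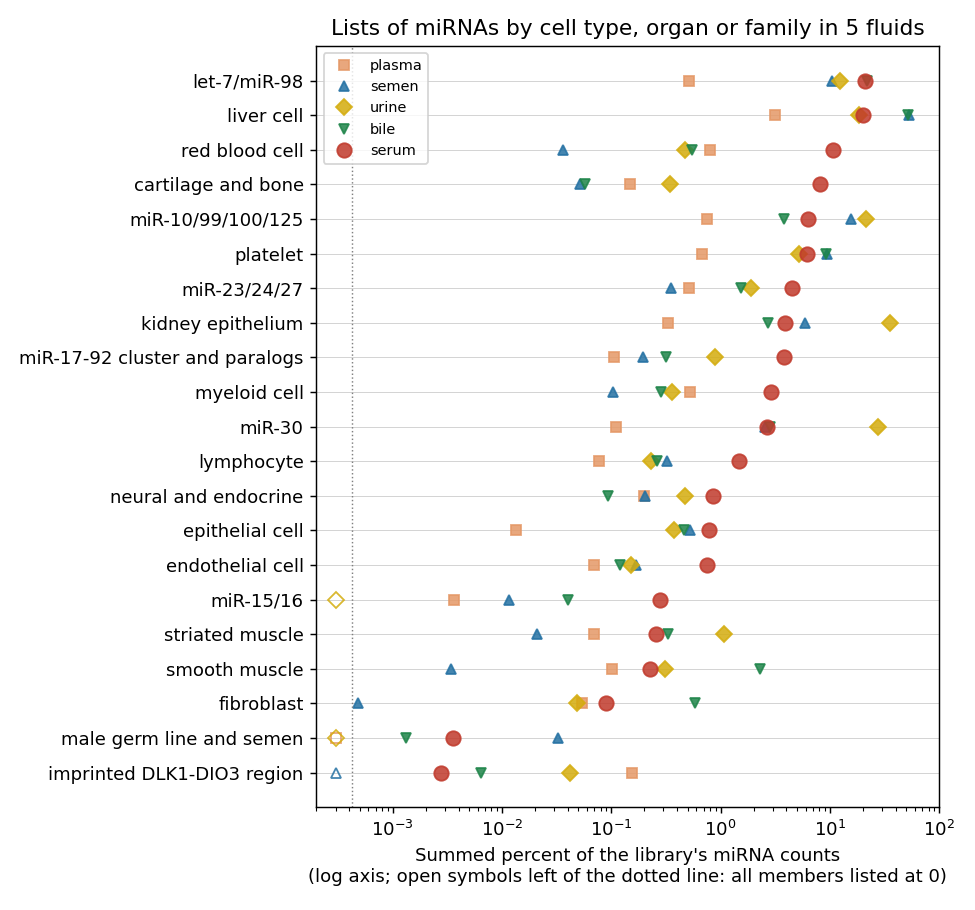
Summed percent of the library's miRNA counts (horizontal log axis) for 21 lists of miRNAs, ordered by their serum share, with 1 symbol per fluid and open symbols where all members were listed at 0. Serum is the rightmost symbol for the red blood cell, miR-17-92, miR-15/16 and cartilage lists, and leads their sums under all 6 scalings. For miR-15/16 this leaves out urine, which listed all members at 0. Urine is rightmost for the miR-30 list, a direction that turns on the authors' RPM.

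Against plasma, serum was at least 4-fold higher for 58.9% of its 180 names and at least 4-fold lower for 6.67%, or 12 names. Over the names listed in either blood fluid, 52.5% were called higher in serum and 9.41% lower, so a higher percent in serum was the common state of the names. In 17 of the 62 serum names within 4-fold, plasma was listed at 0 and the ratio is a lower bound. The counts were 20 higher and 40 lower with TMM, and 30 and 33 with totals that leave out miR-378, miR-320 and miR-423-5p. Among the names in both libraries, 52 were higher in serum under all 6 scalings, 28 were lower under all 6, and 59 changed direction.

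miR-378, from an intron of PPARGC1B, miR-320 and miR-423-5p took 6778, 4549 and 6946 counts in serum, but 477625, 295768 and 194560 in plasma. Plasma was higher than serum by 28.9 times (28.2 to 29.6), 26.7 times (25.9 to 27.5) and 11.5 times (11.2 to 11.8). All 3 stood above semen and bile in serum: miR-378 by 19.4 and 19.2 times, miR-320 by 22.7 and 12.8 times, and miR-423-5p by 10.5 and 15.5 times. miR-423-5p was also 24.3 times above urine (15.0 to 42.6), from 16 urine counts. miR-320 was 10.6 times above urine (7.13 to 16.6), but miR-378 took 1.43% of serum and 1.25% of urine, a ratio of 1.14 (1.02 to 1.28) that is under the limit given for urine. miR-378 and miR-378b have near-identical sequences.

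The serum names furthest towards plasma included miR-296-3p, with 321 counts in serum and 34789 in plasma, 44.4 times more (39.8 to 49.8). miR-9820-5p had 10 counts in serum and 12740 in plasma, miR-671-5p 10 and 1956, and miR-127 13 and 1708. These last 3 entered the serum set at or just above its minimum of 10 counts. Furthest towards serum, beside miR-342 and miR-139-5p, were miR-30c-5p, with 777 counts against 14 in plasma, and miR-182, with 3256 against 59. Both stood 135 times above plasma, with intervals of 80.2 to 249 and 104 to 177.

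Against semen, 92 serum names were at least 4-fold higher and 13 lower, where 43.6% and 8.53% of the 211 names listed in either were called. The median log2 ratio over the names in both was 1.44. Furthest towards serum were miR-451, miR-215, miR-486 and miR-342, which semen listed at 0 to 13 counts. Of the shared names, 52 were higher in serum under all 6 scalings, 40 were lower and 51 changed direction. The names furthest towards semen were miR-210, induced by low oxygen, with 32 counts in serum and 5372 in semen, 34.8 times more (24.6 to 50.9), and miR-676-3p with 24 and 3168. miR-96-5p had 10 against 923 and miR-32 had 17 against 1378. On the authors' RPM the counts were 45 higher and 48 lower.

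Against bile, 83 names were at least 4-fold higher and 18 lower, where 39.7% and 11.5% of 209 names were called, and the median log2 ratio over 150 shared names was 1.40. miR-486 and miR-342 led the upper side, followed by miR-2320-5p with 707 counts in serum and 15 in bile, 167 times more (100 to 299.4), and miR-339 with 420 and 10, 149 times more (80.0 to 312). Towards bile stood miR-194a, miR-122 and miR-143-3p, described above, and miR-96-5p with 10 counts in serum and 600 in bile. With DESeq2 size factors 53 were higher and 33 lower. Of the shared names, 62 were higher in serum and 42 lower under all 6 scalings.

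Against urine, 23 names were at least 4-fold higher and 22 lower, where 12.2% and 16.4% of 189 names were called. The depth of urine limits which names can be called higher. Over a listed 0 in urine, a 4-fold lead needed 714 counts in serum, which 56 of the 180 names had. For plasma 17 counts sufficed, for bile 12 and for semen 9. Of the 135 names within 4-fold, 97 were listed at 0 in urine and are unresolved. On the authors' RPM, 117 names were higher and 0 lower, and 37 of the 75 shared names changed direction under some scaling.

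**Figure D5:**
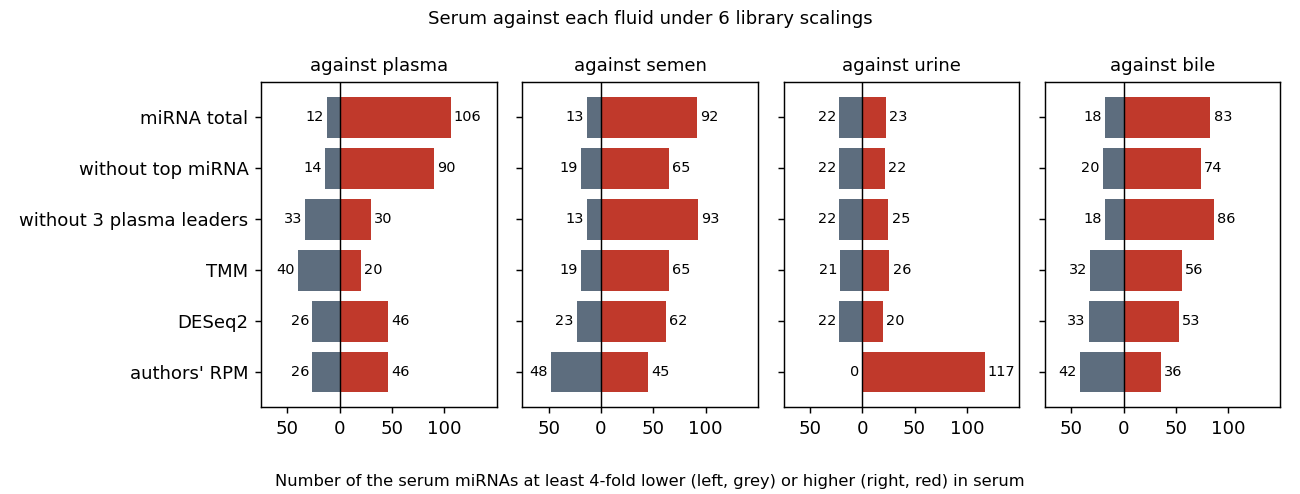
Number of the 180 serum miRNAs at least 4-fold higher in serum (red, to the right) or lower (grey, to the left) against each other fluid, under 6 library scalings (rows). Against plasma 58.9% of the names are higher and 12 names lower on the percent scale, against 20 and 40 names with TMM, and against urine the authors' RPM gives 117 and 0.

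By percent, 88 of the 180 serum names were highest in serum, and these 88 held 46.4% of serum counts. Semen was highest for 18 names that held 28.4% of serum counts, bile for 23 with 13.4%, urine for 28 with 7.23% and plasma for 23 with 4.57%. Many of the 88 are not resolved: 47 lay above every other fluid also when zeros were read as 10 counts, and 37 did so with the lower end of the interval above 1. With 100 or more counts and a 4-fold lead over every fluid there were 13 names, 7.83% of the 166 that had 100 counts in some fluid.

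A set of 20 serum names stayed above the next fluid, or its floor, under all 6 scalings, and held 28.7% of serum counts. They were miR-451, miR-140-3p, miR-92a, miR-215, miR-486, miR-23a, miR-342, miR-126-3p, miR-16, miR-128, miR-181a, miR-150, miR-139-5p, miR-2320-5p, miR-574, miR-17-5p, miR-142-5p, miR-181b, miR-9841-3p and let-7d-3p. Those not described above were chosen by this count, after values were seen. Under TMM several were barely above 1, among them miR-486 at 1.06 and miR-215 at 1.11.

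Serum alone listed 6 names. miR-2320-3p took 0.0281% of the library and is the partner arm of the abundant miR-2320-5p. miR-20b had 55 counts and miR-106a 12, both from the paralogous miR-17-92 cluster of the X chromosome, miR-769-3p had 16 and miR-2411 had 14. The last was miR-324 with 10, named after its value was seen. At the depth of urine none of them could have been told from a listed 0 at equal share. miR-20b and miR-2320-3p stood at least 13.4 and 32.4 times above the plasma floor.

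Both arms were listed in serum for 26 hairpins, of which the 5p arm led in 14 and the 3p arm in 12. With 100 or more counts over both arms in each library, the leading arm differed from serum in 2 of 18 hairpins in plasma (miR-425 and miR-142), 0 of 15 in semen, 0 of 4 in urine and 2 of 18 in bile (miR-361 and miR-145). The leading arm was thus mostly the same in each fluid. miR-361 gave 276 counts of 3p in serum, and 31.5% of the hairpin's counts were 5p (27.004 to 36.3). The share was 6.76% in plasma (3.75 to 11.1), 35.1% in semen (31.2 to 39.2) and 77.1% in bile (71.1 to 82.3).

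miR-425 gave 459 counts of 5p and 201 of 3p in serum, 69.5% (65.9 to 73.0), against 35.7% in plasma (29.4 to 42.4), 83.1% in semen (80.8 to 85.2) and 74.7% in bile (70.4 to 78.7). miR-145 gave 89.4% 5p in serum (82.2 to 94.4), 86.0% in plasma (77.6 to 92.1) and 44.6% in bile (39.7 to 49.7). In these 2 hairpins and in miR-361, a pair of fluids with separate intervals can be found, but each rests on 1 library. miR-148a, chosen after its values were seen, gave 0.243% 5p in serum (0.211 to 0.278) and 16.8% in plasma (16.3 to 17.4).

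Of the 237 names listed in any fluid, 57 were listed at 0 in serum, and 21 of these had 100 or more counts elsewhere. The most abundant were miR-135, with 6200 counts in semen and 370 in bile, and miR-429, an epithelial miRNA of the miR-200 family, with 1763 in semen, 338 in bile and 29 in urine. miR-199b-3p had 1584 counts in bile, and miR-34c, known from male germ cells, 604 in semen. miR-29b, of the lymphocyte list, had 355 in semen and 108 in bile. As the leading names of that set, these 5 were picked with their values in view. None was listed in plasma, so these names were under the listing limit in both blood fluids. miR-199a-3p, of the same family as miR-199b-3p, had 301 counts in serum and 552 in plasma. How reads that match several names were assigned is not stated, so the 0 of miR-199b-3p in blood is uncertain.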

How the data were processed

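Small RNA of exosomes was sequenced from 5 fluids of pigs, 1 library each. A commercial reagent served to isolate exosomes and Trizol to extract RNA, per the labels' protocols, and small RNA was cut from a gel by size before sequencing. For the sequencing, 2 Illumina instruments are named. Per the submitters' processing notes, bcl2fastq 2.17 and genome build Sscrofa10.2 were used. The sources used here do not state the aligner, the annotation of mature miRNAs or how reads with several matches were counted. The authors deposited, per library, a count and a normalized value for each of 411 mature names. Every count was 0 or at least 10, so values under 10 are taken as not listed. The normalized values deposited by the authors behave as RPM: they follow the count by 1 constant per library (deviation at most 0.00461%), against totals of 7207788 to 10801967. The sources used here do not say what those totals count.

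From the counts, percents of the library's miRNA total, CPM ratios and exact 95% intervals were computed (Python 3.11.15, scipy 1.17.1). TMM came from edgeR 4.0.16 and size factors (poscounts) from DESeq2 1.42.0 in R 4.3.3, used for scaling only. Code for ratios and calls was tested on simulated data. Called means at least 4-fold. The alternatives were these scalings, a minimum of 100 counts, a floor of 3 counts, a 2-fold limit, summed arms, and leaving out urine or plasma. For the names that hold 90% of serum counts, counts were also scaled down to the smallest library total, without random sampling. The authors' RPM and totals without the 3 leading plasma miRNAs were added after the data were seen.

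The serum set, the 21 lists and the tests were chosen with earlier results of these data known. Named miRNAs follow a rule: the 25 leading in serum, the 10 with the largest ratio to the next fluid, the 4 furthest in each direction per fluid, the 2 leading members of each list, the 5 leading serum-only names and the 4 hairpins whose arm share ranged most. Others are said to be chosen after their values were seen, or appear as the partner, neighbour or list member of a named miRNA. A planned grouping by seed could not be made without mature sequences at hand, and no sequence is printed. Neighbouring genes (within 10 kb) were read from a RefSeq table of Sscrofa11.1, another build, so no coordinates are given; 176 of the 180 serum names matched a gene there.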

Additional observations from a re-analysis of the deposited data

How the results depend on the processing

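With 1 library per fluid no replicate could be left out. No paired analysis was possible because each fluid has a single library. The number of names that hold 90% of serum counts stayed near 33 under both of its alternatives, and 55 of 94 counts stayed within 1.5 times. The other 39 moved, and the cause was not tested. Names highest in serum went from 88 to 49 with TMM, 55 with DESeq2 size factors, 40 on the authors' RPM and 54 at 100 or more counts. Names 4-fold above every other fluid went from 13 to 7 with TMM and 7 with DESeq2, 8 without the 3 plasma leaders, 25 with a floor of 3 counts, 30 at 2-fold and 29 without urine. Against plasma, 58.9% of the 180 names higher and 12 names lower became 20 and 40 with TMM, 46 and 26 with DESeq2, 46 and 26 on the authors' RPM, and 30 and 33 without the 3 plasma leaders; the lower count was 6 at 100 or more counts and 20 at 2-fold. Against semen, 92 higher became 45 on the authors' RPM and 57 at 100 or more counts, and 13 lower became 23 with DESeq2, 48 on the authors' RPM, 2 at 100 or more counts and 22 at 2-fold. Against urine, 23 higher became 117 on the authors' RPM, 44 with a floor of 3 and 40 at 2-fold, and 22 lower became 0 on the authors' RPM and 8 at 100 or more counts. Against bile, 83 higher became 53 with DESeq2, 36 on the authors' RPM and 55 at 100 or more counts, and 18 lower became 32 with TMM, 33 with DESeq2, 42 on the authors' RPM, 6 at 100 or more counts and 32 at 2-fold. Of 42 single values under 272 alternatives, 2 reversed: the log2 ratio of miR-24-3p to the next fluid became -0.080 with TMM, and that of miR-363 in serum over urine became 0.51 on the authors' RPM. The rest kept their direction, within their counting interval or beyond it. The single values were those of the 10 names with the largest ratio to the next fluid and the 4 furthest in each direction per fluid. Names so far from 1 could hardly turn, so their kept direction says little about other names. Of all names shared with serum, 59 changed direction under some scaling against plasma, 51 against semen, 37 against urine and 46 against bile. The depth of urine limits which serum names can be resolved there.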

Other observations

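Many serum miRNAs are encoded close together. In the RefSeq table, 64 of the 180 serum names fell into 27 groups of neighbouring genes with 2 or more hairpins, and these held 40.9% of serum counts. Taking the leading arm of each hairpin, the leading hairpin exceeded the lowest at least 10-fold in 14 groups and at least 100-fold in 7. Among the 14 groups without a name of several gene copies, 7 passed 10-fold and 4 passed 100-fold. The miR-99a and let-7c pair was among the even ones, with 23134 and 10827 counts, a ratio of 2.14 in serum (2.09 to 2.19), 1.44 in bile (1.42 to 1.47), 4.19 in urine (3.66 to 4.82), 4.08 in plasma (3.86 to 4.30) and 2.81 in semen (2.78 to 2.84). miR-206 and miR-133b, muscle miRNAs, took 0.0543% and 0.0471% of serum, a ratio of 1.15 (0.959 to 1.39), against 3.39 in plasma (2.78 to 4.16). miR-191 exceeded its neighbour miR-425-5p by 6.74 times in serum (6.11 to 7.45), 4.95 in plasma (3.88 to 6.38), 11.7 in bile (10.4 to 13.1) and 12.1 in semen (11.3 to 13.0). Several names have more than 1 gene copy, so their counts cannot be given to 1 group. The pairs were chosen after their values were seen.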
